A study of Mus musculus with 51 samples.

Results

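The astrocyte preparations of control mice were compared with total homogenate of the same animals, to describe what capture with ACSA2 beads enriched and depleted in normal prefrontal cortex. All libraries labelled control (air) whose titles carry the code AS or TH were taken, which gave 8 astrocyte preparations and 8 homogenates, 16 of the 51 libraries of the series, joined by the mouse number at the end of the title. The mice were male C57BL/6J, 8 weeks old when bought, and received saline and the alcohol dehydrogenase inhibitor pyrazole at 1 mmol/kg before breathing fresh air in inhalation chambers for 16 h a day over 4 weekly cycles. No mouse of this comparison received ethanol, but all of them received pyrazole and the chamber. The foremost 2 mm of cortex was minced, 5% of the suspension was set aside as homogenate, and the rest was dissociated with papain, spun through 25% Percoll to take off myelin, and passed over magnetic beads against ACSA2. Homogenate and bead fraction therefore differ in dissociation, in myelin removal and in capture, and the contributions of these steps cannot be told apart. Only for side values, the 8 control microglia preparations (CD11b beads applied to the cells that ACSA2 beads left) and the 18 astrocyte preparations and homogenates of 9 mice exposed to chronic intermittent ethanol vapor (CIE) were used.

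ACSA2 is an epitope of the beta subunit of the sodium and potassium pump encoded by Atp1b2, which cortical astrocytes carry on their surface. Astrocytes clear glutamate and potassium around synapses, couple to each other through gap junctions, store glycogen and supply lipids to neurons. Enzymatic dissociation is a well-known trigger of immediate early genes, the transcription factors and feedback regulators that cells make within minutes of a stimulus, and of heat shock and NF-kB target genes in brain cells, which is why such genes are often examined in isolated glia.

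The 16 libraries held between 2082289 and 15594154 counts assigned to genes, with 2082289 to 7189353 in the ACSA2 preparations and 5247210 to 15594154 in the homogenates. After removal of genes with low counts, 13620 of 24421 genes were tested. With the mouse as a block, 5334 genes (39.2% of those tested) were higher in the ACSA2 preparation and 5461 (40.1%) were lower at an adjusted p under 0.05, so 79.3% of all genes differed. Against the stricter null hypothesis of a change of up to 2-fold, 2286 genes (16.8%) were higher and 2545 (18.7%) were lower. The lowest level in one preparation exceeded the highest in the other for 7380 genes (54.2%). The median log2 fold change of all genes was -0.01. Levels are given below as CPM (read counts per gene relative to the scaled library size) after scaling over the 24 control libraries, and fold changes as log2 of the ACSA2 preparation over homogenate ± SE from 8 mice.

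The label astrocyte was borne out in part. The 3 defining markers were all higher: Aqp4, the water channel of astrocyte endfeet, Gja1, the gap junction protein connexin 43, and Slc1a2, the main glutamate transporter. Atp1b2, the gene of the captured antigen, was higher as well. The genes that rose most as a cell type list were, however, those of myelinating oligodendrocytes, and markers of microglia, endothelium and pericytes rose about as much as those of astrocytes or more, whereas neuronal genes were almost lost. The preparation is therefore called the ACSA2 preparation here. In bulk RNA, fewer cells of a type and less RNA per cell cannot be told apart.

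**Figure D1:**
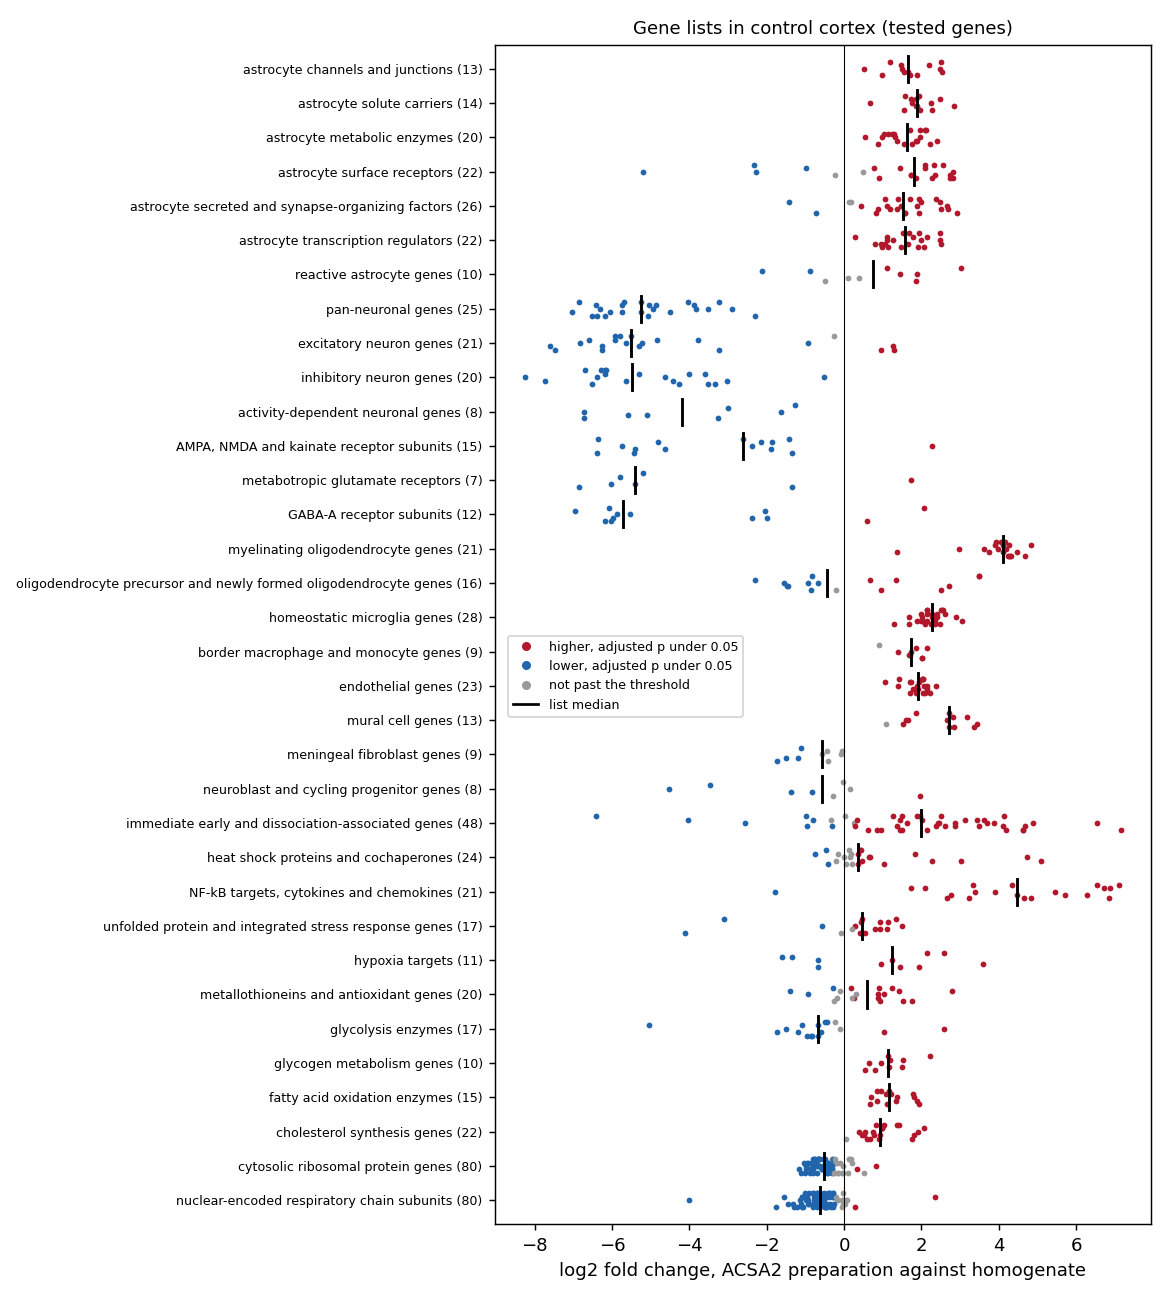
Log2 fold change of the ACSA2 preparation over homogenate in control mice (x axis) for every tested gene of each list with at least 5 tested genes (y axis, number of genes in brackets). Red points were higher and blue points lower at an adjusted p under 0.05, gray points did not pass, and black bars are list medians, from -5.71 for GABA-A receptor subunits to 4.47 for NF-kB targets.

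Aqp4 ranged from 366 to 709 CPM (median 514) in the ACSA2 preparations and from 123 to 194 CPM (median 152) in homogenate, a log2 fold change of 1.70 ± 0.11 (adjusted p = 7.69e-09). Gja1 (GRCm38 chr10:56377330-56402513) ranged from 1077 to 1901 CPM (median 1371) against 220 to 274 CPM (median 236), 5.68-fold higher with an SE of 0.10 on the log2 scale (adjusted p = 9.34e-11). For both genes every ACSA2 library lay above every homogenate. Slc1a2 (chr2:102658659-102790784) was already among the abundant transcripts of the homogenate, at 3826 to 5786 CPM (median 4267), and reached 5219 to 8971 CPM (median 8000) in the ACSA2 preparation. Its log2 fold change was 0.67 ± 0.13 (adjusted p = 0.000312), it was higher in 8 of 8 mice, and the 2 groups overlapped. Atp1b2 (chr11:69599736-69605942) ranged from 1118 to 1923 CPM against 421 to 653 CPM, without overlap, at a log2 fold change of 1.49 ± 0.10 (adjusted p = 2.15e-08).

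**Figure D2:**
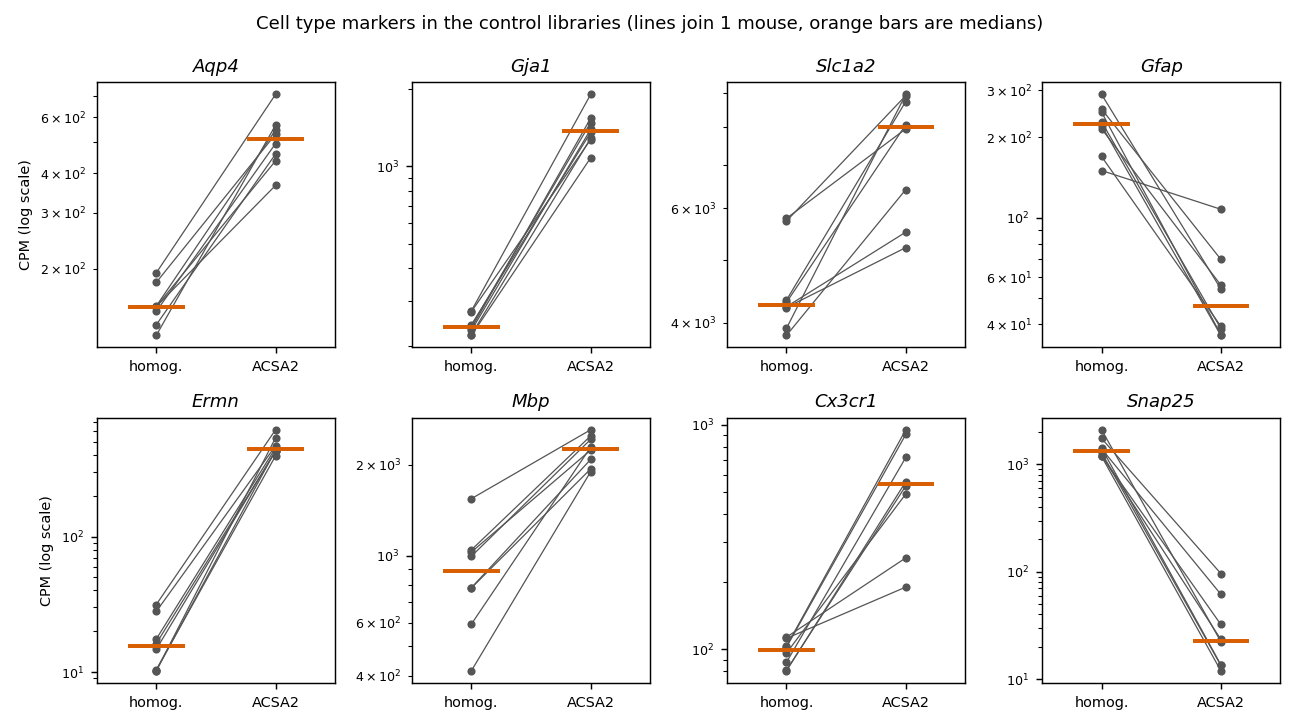
Level (CPM, log axis) of 8 cell type markers in homogenate (homog.) and the ACSA2 preparation of 8 control mice. Lines join the libraries of 1 mouse and orange bars are medians: Aqp4, Gja1, Slc1a2, Ermn, Mbp and Cx3cr1 were higher in the ACSA2 preparation of every mouse, and Gfap and Snap25 were lower.

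The astrocyte genes were grouped by what their products do. All 13 channel and junction genes were higher, 11 of them by more than 2-fold, with a median log2 fold change of 1.65, and 12 of 13 did not overlap between groups. The list ran from Gpr37l1, an orphan receptor of glia (2.54), Gja1 and Hepacam, an adhesion protein that anchors the chloride channel machinery of endfeet (2.47), down to Kcnj16, an inward rectifier potassium channel subunit (1.20), Mlc1, the partner of Hepacam (0.99), and Ttyh1 (0.50). All 14 solute carriers were higher, with a median of 1.87. Slc7a10, a transporter of alanine, serine and cysteine, led them at 192 to 304 CPM against 25.1 to 41.8 CPM (log2 fold change 2.85 ± 0.10, adjusted p = 3.22e-11), followed by the zinc transporter Slc39a12 (2.49) and the glycine transporter Slc6a9 (2.27). Slc1a2 was the lowest of the list. Slc1a3, the second glial glutamate transporter, had a log2 fold change of 1.87, so the ratio of Slc1a2 to Slc1a3 fell from 6.05 to 7.57 in homogenate to 2.32 to 3.43 in the ACSA2 preparation, lower in 8 of 8 mice.

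The 20 metabolic enzymes of astrocytes were all higher (median 1.63), from Cyp4f15, a cytochrome of fatty acid metabolism (2.40), and Phgdh, which opens serine synthesis (2.22), to Dio2, the enzyme that activates thyroid hormone (0.99), and Ppp1r3c, which targets a phosphatase to glycogen (0.53). Aldh1l1, a folate enzyme much used as an astrocyte marker, was 222 CPM on average against 87.8 CPM (1.31). All 22 transcription regulators were higher (median 1.58), led by Zfp36l1, which destabilizes transcripts (5.67-fold higher), Gli2, a mediator of hedgehog signaling (log2 fold change 2.49), and the Notch target Hes1 (2.47), with Nfib lowest (0.28). Zfp36l1 and Hes1 had higher levels in the microglia preparation (686 and 145 CPM) than in the ACSA2 preparation (255 and 57.1 CPM), whereas Gli2, at 40.3 CPM in the ACSA2 preparation, stood at 0.79 CPM there. Of 26 secreted and synapse-organizing factors, 22 were higher and 2 were lower, with a median of 1.52. Megf10, an engulfment receptor (2.92), Htra1, a secreted protease (2.68), and Mfge8, a bridging protein of phagocytosis (2.65), led this list, and Cpe, a peptide-processing enzyme shared with neurons (-0.73), and Thbs4 (-1.42) were lower.

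The surface receptors divided. Of 22 tested, 16 were higher and 4 were lower, and the median was a 3.49-fold rise. The Wnt receptor Fzd2 (2.83), the toll-like receptor Tlr3 (2.81) and F3, tissue factor (2.74), led the list. The lower members were Gabbr1 (-0.98) and Gabbr2 (-2.33), the subunits of the GABA-B receptor, the adrenergic receptor Adrb1 (-2.29), and the metabotropic glutamate receptor Grm5. Grm5 ranged from 3.21 to 11.3 CPM (median 6.54) in the ACSA2 preparations and from 185 to 292 CPM (median 216) in homogenate, 36.5-fold lower (adjusted p = 8.86e-11). Grm3, the metabotropic receptor of adult astrocytes, was in contrast the only one of 7 metabotropic receptor genes that was higher (1.72). Among 15 ionotropic glutamate receptor subunits Grin2c alone was higher, at 344 to 720 CPM against 79.1 to 126 CPM (2.26 ± 0.12, adjusted p = 2.11e-09), and among 12 GABA-A subunits Gabrg1 (2.06) and Gabrb1 (0.58) were higher and the other 10 lower.

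Gfap, the intermediate filament by which astrocytes are often stained, went against most astrocyte genes. Gfap (chr11:102887336-102900912) ranged from 36.4 to 108 CPM (median 46.8) in the ACSA2 preparations and from 150 to 290 CPM (median 225) in homogenate. The groups did not overlap, and the log2 fold change was -2.12 ± 0.22, 4.35-fold lower (adjusted p = 1.07e-06). The ratio of Gfap to Aqp4 was 0.0719 to 0.152 in the ACSA2 preparations and 0.774 to 1.74 in homogenate, lower in 8 of 8 mice. Vim, another intermediate filament gene, was higher (1.11 ± 0.21, adjusted p = 0.000248) and S100b, a calcium-binding protein of astrocytes, had a log2 fold change of 0.09 (adjusted p = 0.50). Of the 15 reactive astrocyte genes 10 had enough counts to be tested. Of these, 5 were higher, with Hspb1 (3.03) and S1pr3 (1.89) at the top, and 2 were lower (Gfap, and Serpina3n at -0.88). Among all genes tested, 39.2% were higher and 40.1% lower.

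Genes of myelinating oligodendrocytes, which wrap axons in lipid-rich membrane, were higher than in homogenate without exception. All 21 were more than 2-fold higher and did not overlap between groups, and their median log2 fold change was 4.12, a 17.4-fold difference. Ermn (chr2:58045113-58052864), a cytoskeletal protein of mature oligodendrocytes, had the largest value of the list. It ranged from 394 to 614 CPM (median 442) against 10.2 to 31.5 CPM (median 15.5), a log2 fold change of 4.83 ± 0.18 (adjusted p = 7.69e-11), followed by the transcription factor Nkx6-2 (4.69) and Opalin (4.48). The transcript of myelin basic protein stood apart at the low end: Mbp was 1895 to 2609 CPM (median 2260) against 415 to 1543 CPM (median 888), a log2 fold change of 1.38 ± 0.15 (adjusted p = 1.78e-06), and Mobp, another basic protein of compact myelin, was next (2.97).

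Genes of oligodendrocyte precursors and newly formed oligodendrocytes did not share this pattern as a list. Of 16 tested, 7 were higher and 8 lower, with a median of -0.44. These shares are near those of all genes tested in this fit (39.2% higher and 40.1% lower). The transcription factors Sox10 (3.48), Olig2 (2.72) and Olig1 (2.51), which precursors and mature cells both use, and Enpp6 of newly formed cells (3.49) were higher. Pdgfra, the growth factor receptor that defines precursors, was 21.6 to 116 CPM (median 43.1) against 53.6 to 76.4 CPM (median 66.6), a log2 fold change of -0.67 (adjusted p = 0.00656) with overlapping groups, and Gpr17 (-0.85), Lhfpl3 (-1.44) and Myt1 (-2.29) were lower too. Myelin genes were also higher in the CD11b preparation than in homogenate for 20 of 21 members (39.1% of 13393 genes were higher in that fit and 43.4% lower), but at a median of 1.84, and all 21 were higher in the ACSA2 than in the CD11b preparation of the same mice (37.5% of 12057 genes were higher in that fit and 35% lower).

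Neuronal transcripts were depleted. All 25 pan-neuronal genes were more than 2-fold lower, with a median log2 fold change of -5.24, a 37.8-fold difference. Snap25, a component of the synaptic vesicle fusion machinery, ranged from 12 to 96.2 CPM (median 22.9) against 1187 to 2099 CPM (median 1343), 54.0-fold lower (adjusted p = 5.26e-09). The neurofilament Nefh fell furthest in this list (-7.04) and the dendritic microtubule protein Map2 least (-2.29), so the ratio of Map2 to Snap25 rose from 0.466 to 0.680 in homogenate to 1.89 to 13.6 in the ACSA2 preparation. Of 21 excitatory neuron genes 17 were lower, with Calb1 (-7.61) and Lamp5 (-7.47) lowest and the kinase Camk2a at 26.3 to 94.4 CPM against 3763 to 6341 CPM (-6.83). Of the other 4, the transcription regulators Rorb (1.30), Etv1 (1.26) and Tle4 (0.95) were higher, and Cux1 (-0.27, adjusted p = 0.0893) did not pass. Rorb was 158 CPM in the ACSA2 preparation, 65.2 CPM in homogenate and 4.40 CPM in the microglia preparation. All 20 inhibitory neuron genes were lower, from Sst, the neuropeptide somatostatin (0 to 1.28 CPM against 99.3 to 162 CPM, -8.25), to the neuregulin receptor Erbb4 (24.5 against 34.2 CPM, -0.53, adjusted p = 0.0184).

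Depletion differed in degree between mice and was complete in none. Summed over the list, pan-neuronal genes were 441 to 1039 CPM in the ACSA2 preparations and 14957 to 16794 CPM in homogenate. The pan-neuronal median, taken within each mouse, ranged from -4.06 in mouse 36 and -4.51 in mouse 35 to -5.75 in mouse 22, and Snap25 was highest in the ACSA2 libraries of mice 36 (96.2 CPM) and 35 (61.7 CPM).

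Microglia genes were present in the ACSA2 preparation at more than the level of the homogenate. All 28 homeostatic microglia genes were higher, 27 of them by more than 2-fold, with a median log2 fold change of 2.26, and each defining marker was detected. Cx3cr1, the fractalkine receptor, ranged from 189 to 951 CPM (median 546) against 80.2 to 113 CPM (median 99.2), 5.26-fold higher (adjusted p = 2.18e-06), and was at 3498 to 5948 CPM in the CD11b preparations. The summed level of the list was 2398 to 10738 CPM in the ACSA2 preparations, 982 to 1490 CPM in homogenate and up to 61567 CPM in the CD11b preparations. Mice 03 and 05 were low, with sums of 3268 and 2398 CPM, while the other 6 ACSA2 libraries ran from 5326 to 10738 CPM. Of 9 tested genes of border macrophages and monocytes 8 were higher (median 1.72), among them the scavenger receptor Stab1 (2.14) and the mannose receptor Mrc1 (2.01).

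Vascular genes followed. All 23 endothelial genes were higher (median 1.90), with the lipid transporter Mfsd2a of the blood-brain barrier first (2.38) and Egfl7 last (1.05). Flt1, a receptor of vascular endothelial growth factor, was 326 to 773 CPM against 77.9 to 133 CPM. Of 13 mural cell genes 12 were higher (median 2.70). The pericyte channel subunits Kcnj8 (3.43) and Abcc9 (3.35) led, the latter at 120 to 236 CPM against 12.4 to 21.7 CPM, while the smooth muscle gene Acta2 (1.52, adjusted p = 0.0294) overlapped between groups and Tagln (1.09, adjusted p = 0.0845) did not pass. Genes of meningeal fibroblasts were 0 of 9 higher and 4 lower (median -0.57), Col1a1 and Dcn among the lower. The share of lower genes is near that of all genes tested (40.1%). In 0 of the 9 genes were the groups free of overlap, and the median within a mouse ranged from -1.38 to 0.95. Choroid plexus genes were 0 of 2 tested higher, with Ttr at -4.10. Of 11 ependymal genes 3 were tested. Among these, 1 was lower (-3.49, at under 5 CPM on average in both preparations) and 2 were higher, Foxj1 (1.79) and Rarres2 (1.90). Of 9 neutrophil genes only Mmp9 was tested, at -1.89, and no gene of 6 lymphocyte genes passed the filter on low counts. Of the progenitor genes Nes was higher (1.95), and Dcx, a marker of young neurons, was lower (-4.52).

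Most immediate early genes were higher in the ACSA2 preparation, and a few were lower. Of 48 immediate early and dissociation-associated genes, 38 were higher, 33 of them by more than 2-fold. A further 7 were lower, 3 of them by more than 2-fold, and the list median was 1.99 on the log2 scale. In the NF-kB, cytokine and chemokine list 20 of 21 tested genes were higher, all 20 by more than 2-fold, with a median of 4.47. The filter on low counts keeps a gene that is high enough in either preparation. Genes nearly absent from homogenate were therefore tested only where the ACSA2 preparation held counts. The count and median of this list are partly set by that filter. Heat shock genes differed less: 13 of 24 were higher and 3 lower, 5 higher by more than 2-fold, with a median of 0.36. Among all genes tested, 39.2% were higher, 40.1% lower and 16.8% more than 2-fold higher. The 2-fold count of heat shock genes is near that last share. Promoter sequence is shown for 4 genes from these lists, because each holds a match to a short known motif. Fos and Atf3 hold the core of the cyclic AMP response element. Hspa1a holds a pair of heat shock units, and Nfkbia a kappa B site. The sequences are the 250 bases before the RefSeq transcription start, 5′ to 3′ on the strand of the gene in GRCm38.p6, at chr12:85473640-85473889 (plus strand), chr1:191183334-191183583 (minus), chr17:34972157-34972406 (minus) and chr12:55492648-55492897 (minus), with the motif matches of either strand in capitals.

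Fos: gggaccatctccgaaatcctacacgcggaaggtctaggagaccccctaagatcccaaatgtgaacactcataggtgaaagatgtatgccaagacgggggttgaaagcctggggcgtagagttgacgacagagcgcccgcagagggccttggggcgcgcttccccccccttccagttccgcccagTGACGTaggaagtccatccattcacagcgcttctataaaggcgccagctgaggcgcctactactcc
Atf3: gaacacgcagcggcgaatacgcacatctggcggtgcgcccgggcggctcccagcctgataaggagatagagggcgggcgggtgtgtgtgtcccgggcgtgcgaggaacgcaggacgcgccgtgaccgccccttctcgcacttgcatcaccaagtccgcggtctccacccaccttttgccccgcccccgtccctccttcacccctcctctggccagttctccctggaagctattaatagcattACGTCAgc
Hspa1a: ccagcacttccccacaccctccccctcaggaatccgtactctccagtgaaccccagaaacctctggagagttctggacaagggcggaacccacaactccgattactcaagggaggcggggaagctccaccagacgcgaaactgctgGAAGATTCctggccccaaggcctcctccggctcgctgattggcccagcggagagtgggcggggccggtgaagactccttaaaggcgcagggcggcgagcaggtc
Nfkbia: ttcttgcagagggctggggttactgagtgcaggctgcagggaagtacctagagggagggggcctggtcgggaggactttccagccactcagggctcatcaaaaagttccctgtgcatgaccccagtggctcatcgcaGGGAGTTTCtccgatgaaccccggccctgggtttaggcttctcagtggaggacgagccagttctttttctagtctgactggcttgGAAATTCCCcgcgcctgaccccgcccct

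The match of TGACGT lies 66 bases before the start in Fos and 8 bases before it in Atf3, that of GAANNTTC 104 bases before it in Hspa1a, and those of GGGANTTTC 113 and 28 bases before it in Nfkbia, counted from the first base of each match. TGACGT, searched on both strands, was found in 12 of 39 windows of the immediate early list that RefSeq symbols matched (30.8%) and in 6.56% of all 27025 windows, or 10.2% of the 10365 windows of tested genes. The matching genes were Atf3, Btg1, Btg2, Ccn1 (Cyr61 in these files), Dusp1, Dusp5, Egr4, Fos, Nr4a3, Plk2, Plk3 and Ppp1r15a, which include Egr4, Nr4a3 and Plk2 that were lower in the ACSA2 preparation and Dusp5 that did not differ. GAANNTTC, which reads the same on both strands, was found in 6 of 19 heat shock windows (31.6%: Dnaja1, Fkbp4, Hspa1a, Hspa1b, Hspb1 and Hspe1) and in 6.78% of all windows. GGGANTTTC was found in 5 of 19 windows of the NF-kB list (26.3%: Csf1, Cxcl1, Cxcl2, Il6 and Nfkbia) and in 0.977% of all windows. These matches describe the letters of a short window and are not evidence of binding.

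Among the AP-1 transcription factors, Fos (chr12:85473890-85477273) was 480 to 1238 CPM (median 903) in the ACSA2 preparations and 17.9 to 44.9 CPM (median 33.8) in homogenate, 25.5-fold higher (log2 fold change 4.67 ± 0.13, adjusted p = 1.10e-11). Jun was 824 to 2371 CPM (median 1492) against 52.5 to 70.2 CPM (median 57.4), at a log2 fold change of 4.62 ± 0.18, and Fosb had a log2 fold change of 4.88. Atf3, a stress-induced partner of Jun, had the largest change of the list, from 1.29 to 3.97 CPM in homogenate to 194 to 847 CPM in the ACSA2 preparation (7.15 ± 0.30, adjusted p = 1.54e-10). In none of these genes did the groups overlap. Zfp36, which destabilizes cytokine transcripts (6.55), the Krüppel-like factors Klf4 (4.62) and Klf2 (4.14), Socs3, a brake on cytokine receptors (4.19), Ppp1r15a, which relieves the translation block of the stress response (4.10), and the phosphatase Dusp1 (3.63) were also far higher.

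Some early response genes that neurons use after synaptic activity moved the other way. Egr3 was 7.88 to 24.8 CPM (median 11.5) in the ACSA2 preparations against 166 to 250 CPM (median 207) in homogenate, 16.4-fold lower (adjusted p = 9.22e-11), Egr4 was 85.2-fold lower, and Nr4a3 had a log2 fold change of -2.57. All 8 activity-dependent neuronal genes were lower (median -4.18), among them Npas4 (-6.73), Arc (-3.26) and Bdnf (-5.10). Egr1 (1.36 ± 0.15, adjusted p = 2.35e-06) and Nr4a1 (0.62 ± 0.12, adjusted p = 0.000447), which belong to the same families, were higher in 8 of 8 mice with overlapping groups, and the homogenate held 220 to 383 CPM of Egr1 and 107 to 178 CPM of Nr4a1. Neither Egr2 (0.24, adjusted p = 0.169) nor Dusp5 (0.03, adjusted p = 0.924) passed the test, and Bhlhe40 (-0.32), Klf10 (-0.82), Nr4a2 (-0.95) and Plk2 (-0.98) were lower.

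Heat shock genes differed among themselves. Hspa1a (chr17:34969190-34972156), the inducible HSP70, was 228 to 837 CPM (median 451) against 10.5 to 15.2 CPM (median 13.9), 33.9-fold higher (adjusted p = 3.40e-11). Its near-identical neighbor Hspa1b had a log2 fold change of 4.74, and the split of reads between these copies is uncertain. The small heat shock protein Hspb1 (3.03) and the cochaperone Bag3 (2.27) were also more than 2-fold higher. Values were smaller for the constitutive HSP70 Hspa8 (0.36) and for Hsp90aa1 (0.44), a cytosolic HSP90. Neither the constitutive HSP90 Hsp90ab1 (0.21, adjusted p = 0.0527) nor the mitochondrial chaperone Hspd1 (0.17, adjusted p = 0.0540) passed the test, and the HSP110 family members Hsph1 (-0.41), Hspa4l (-0.46) and Hspa4 (-0.76) were lower.

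The cytokine list had the highest median of the lists tested, a rank that depends in part on the filter on low counts. Transcripts of the chemokines Ccl3 (7.11) and Ccl4 (6.84) and of Tnf (6.88) were near the floor of detection in homogenate, with Tnf at 0 to 0.571 CPM there and at 11.1 to 53.5 CPM (median 30.9) in the ACSA2 preparation. Il1a was 47.3 to 232 CPM (median 107) against 0.933 to 1.84 CPM (median 1.36), 77.7-fold higher (adjusted p = 2.19e-11). The feedback inhibitors of the pathway were higher as well, Nfkbia (chr12:55489410-55492647) at 137 to 270 CPM against 14.4 to 22.6 CPM (3.34 ± 0.15), Tnfaip3 (4.34) and Nfkbiz (4.47). Ptgs2, the inducible cyclooxygenase that cortical neurons express, was lower (-1.78, adjusted p = 1.82e-06). Cxcl1, Cxcl10 and Il6 were below the filter on low counts.

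**Figure D3:**
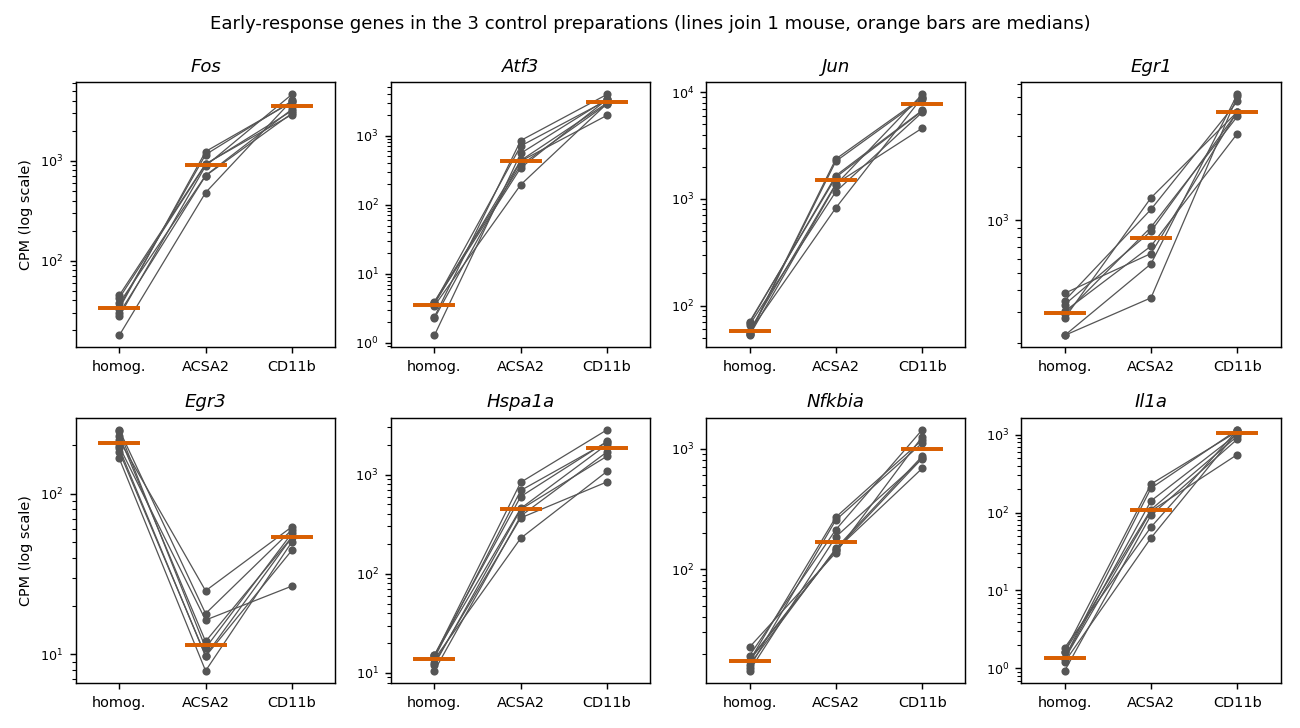
Level (CPM, log axis) of 8 early-response genes in homogenate (homog.), the ACSA2 preparation and the CD11b preparation of 8 control mice. Lines join the libraries of 1 mouse and orange bars are medians: 7 genes were lowest in homogenate and highest in the CD11b preparation, and Egr3 was highest in homogenate.

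Most of the genes of these lists stood higher still in the CD11b preparation of the same mice. Of the 38 immediate early genes that exceeded homogenate in the ACSA2 preparation, 35 were lower in the ACSA2 than in the CD11b preparation, 1 was higher and 2 did not pass at an adjusted p under 0.05. Of all 5334 genes that exceeded homogenate, 2033 (38.1%) were lower in the ACSA2 than in the CD11b preparation. For the 20 NF-kB genes the counts were 19 lower and 0 higher, with 1 not tested, and for the 13 heat shock genes 10 lower and 2 higher. The ratio of the mean level in the ACSA2 preparation to that in the CD11b preparation was 0.115 to 0.208 over the 28 homeostatic microglia genes, with a median of 0.126. Of the 5334 genes that exceeded homogenate, 4865 (91.2%) had a ratio above the highest microglia gene. The ratio was 0.142 at the median of the NF-kB list, for instance 0.122 for Tnf, 0.127 for Il1a and 0.139 for Ccl3, and 4 of the 20 NF-kB genes that were higher than in homogenate lay above the highest microglia gene. It was 0.243 at the median of the immediate early list, where 21 of 38 genes lay above that gene, among them Fos (0.244), Sgk1 (0.587), Errfi1 (0.655) and Cyr61 (2.49). All 13 heat shock genes lay above it, as did most genes, with Hspa1a at 0.280 and Hspb1 at 1.19. Cyr61, a matrix-associated growth regulator, was 95.6 to 224 CPM in the ACSA2 preparation, 21.7 to 120 CPM in the CD11b preparation and 7.27 to 17.9 CPM in homogenate, and was higher in the ACSA2 than in the CD11b preparation (1.42, adjusted p = 6.86e-06).

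**Figure D4:**
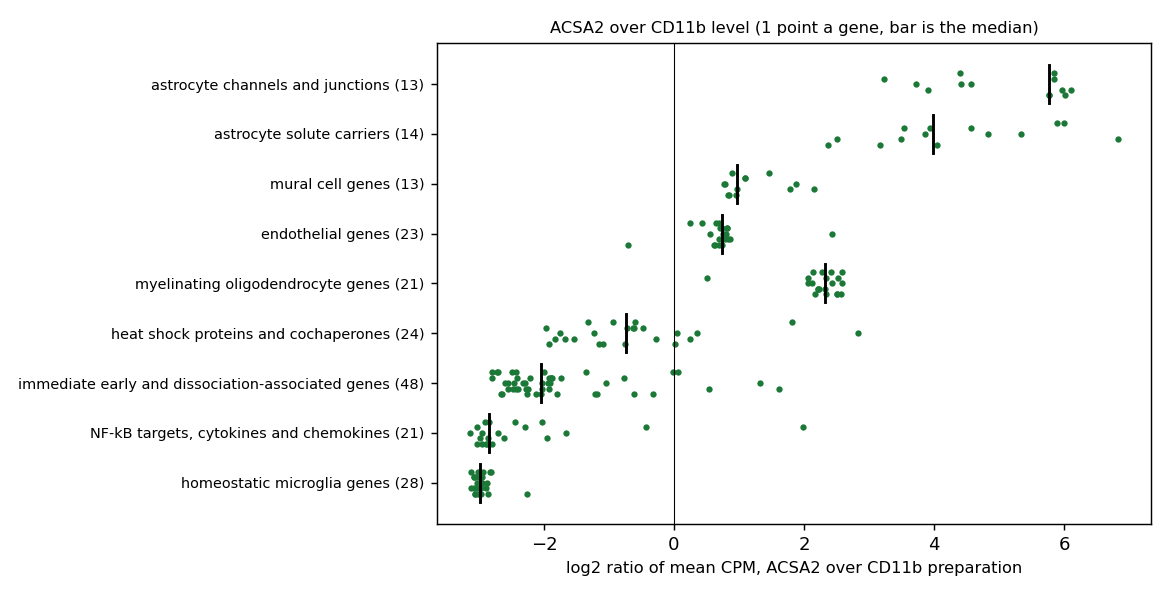
Log2 ratio of the mean CPM in the ACSA2 preparation over that in the CD11b preparation of control mice (x axis), 1 point for each tested gene of 9 lists (y axis, number of genes in brackets), with the list median as a black bar. By median, the NF-kB list sits beside the microglia list near -3, and the immediate early and heat shock lists lie between it and 0. The medians of the myelin, vascular and astrocyte lists lie above 0. Single endothelial, immediate early and heat shock genes lie on the other side of 0 from their median.

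The ACSA2 libraries low in microglia genes were also low in NF-kB targets. Summed over the list, NF-kB targets were 973 and 725 CPM in mice 03 and 05 and 1206 to 2524 CPM in the other 6 mice, against 90.9 to 137 CPM in homogenate. Divided by the summed microglia genes of the same library, the NF-kB sum was 0.199 to 0.302 in the ACSA2 preparations, 0.0983 to 0.246 in the CD11b preparations and 0.0814 to 0.122 in homogenate. For immediate early genes the same quotient was 1.67 to 3.70, 0.652 to 1.47 and 1.65 to 2.93. For heat shock genes it was 0.678 to 2.31, 0.143 to 0.348 and 2.56 to 4.66, in the same order. The mouse numbers fall in 3 ranges, whose meaning the labels do not give. The median log2 difference of the microglia list was 0.91 on average over mice 03 and 05, 2.75 over mice 19, 20 and 22 and 2.52 over mice 35, 36 and 37, and that of the NF-kB list was 3.44, 4.56 and 4.66. Astrocyte channels and junctions were at 1.72, 1.61 and 1.64 in the same ranges, and myelin genes at 3.75, 4.10 and 4.47. How much of each stress gene came from microglia in the ACSA2 preparation was not tested.

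**Figure D5:**
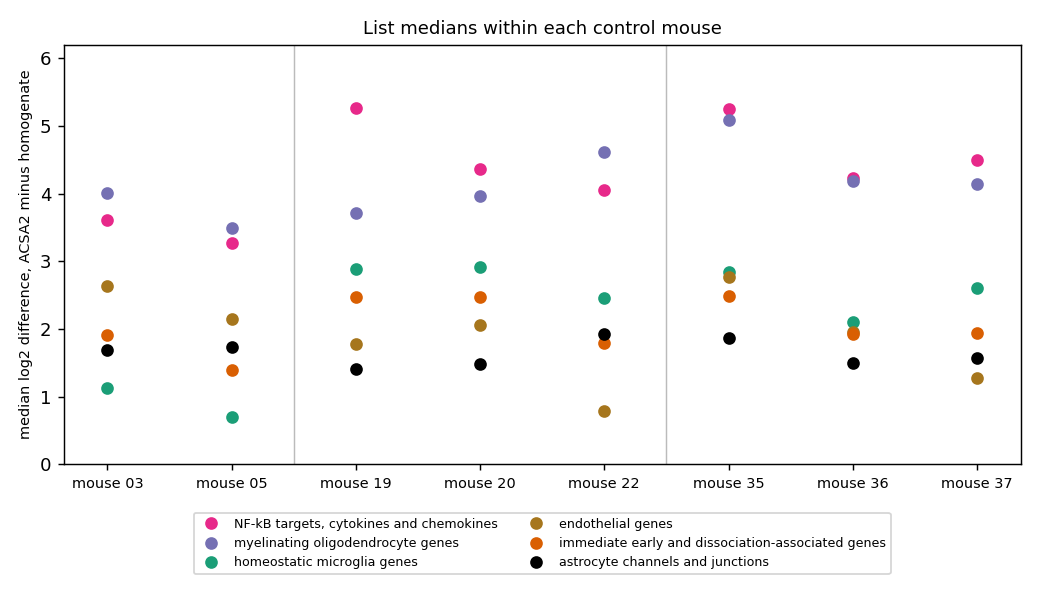
Median over the tested genes of a list of the log2 difference between the ACSA2 preparation and homogenate of the same mouse (y axis), for 8 control mice (x axis) and 6 lists. Gray lines part the 3 ranges of mouse numbers; microglia genes (green) lie at 1.12 and 0.69 in mice 03 and 05 and between 2.11 and 2.91 in the others, and astrocyte channels and junctions (black) between 1.41 and 1.92.

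Other stress programs were mixed, beside 39.2% of all genes tested that were higher and 40.1% that were lower. Of 17 genes of the unfolded protein and integrated stress response 12 were higher and 3 lower (median 0.45), with Ddit4 (2.83-fold higher) and Herpud1 (log2 fold change 1.33) at the top and Asns, asparagine synthetase, at -4.11. Of 11 hypoxia targets 7 were higher and 4 lower. Ndrg1, which oligodendrocytes also express, was 574 to 855 CPM against 40.4 to 81.2 CPM (3.58 ± 0.10, adjusted p = 1.26e-11), and the glycolytic hexokinase Hk2 was 18.0 to 97.3 CPM against at most 11.1 CPM in homogenate (2.58) and 395 to 569 CPM in the CD11b preparation. The hypoxia targets Pdk1 (-1.35) and Egln3 (-1.59) were lower. Of 20 metallothionein and antioxidant genes 12 were higher and 3 lower, with heme oxygenase Hmox1 first (2.80) and Srxn1 last (-1.41).

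Metabolic lists differed in direction. All 10 genes of glycogen metabolism were higher, with log2 fold changes from 0.53 to 2.21, led by the phosphorylase kinase subunit Phkg1 (2.21) and the phosphorylase Pygm (1.51). All 15 enzymes of fatty acid oxidation were higher (median 1.16), led by the carnitine transferases Cpt1a (1.93) and Cpt2 (1.89). In cholesterol synthesis 21 of 22 genes were higher (median 0.92), led by Msmo1 (2.07) and Dhcr7 (1.91). Glycolysis was lower in 13 of 17 enzymes (median -0.68), most of all the neuronal enolase Eno2 (-5.05) and hexokinase Hk1 (-1.75). Aldoc, the aldolase of astrocytes (1.02), and Hk2 were the 2 that were higher. Nuclear genes of the respiratory chain were lower in 67 of 80 (median -0.61), with Cox4i2 the clear exception (2.35), and cytosolic ribosomal protein genes in 58 of 80 (median -0.52), of which none was more than 2-fold lower. Both falls varied between mice. Taken within each mouse, the respiratory chain median ranged from -1.05 to -0.06 and the ribosomal median from -1.05 to -0.05.

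In the mice exposed to CIE the contrast between ACSA2 preparation and homogenate, fitted on 9 other mice, called 38.9% of 13750 genes higher and 40.2% lower. Astrocyte channels and junctions were higher in 13 of 13 (median 1.47, against 1.65 in controls), myelin genes in 21 of 21 (3.81 against 4.12), microglia genes in 28 of 28 (2.27 against 2.26) and pan-neuronal genes lower in 25 of 25 (-5.38 against -5.24). Immediate early genes were higher in 39 of 48 (1.96 against 1.99), NF-kB targets in 21 of 22 (4.08 against 4.47) and heat shock genes in 9 of 24 (0.09 against 0.36). Gfap was lower (-1.53 against -2.12) and Mbp again changed least of the myelin genes that were named (1.13 against 1.38). Differences between the treatments were not tested.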

How the data were processed

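RNA selected for poly(A) was sequenced as paired reads of 150 bases after 15 cycles of PCR. The deposited values are raw read counts per gene, made by the authors with STAR 2.5.0a on mm10, removal of duplicates with Picard 1.141 and HTSeq 0.6.1p1, per the labels and the study's methods. The annotation release and the strand setting are not given in the sources used here, so antisense or overlapping genes cannot be separated. Reads without a feature (14.0% to 30.3% of the reads in the count tables of the 16 libraries) were left out of library sizes. Here, edgeR 4.0.16 (R 4.3.3) scaled counts by TMM, removed low genes by preparation (filterByExpr) and fitted quasi-likelihood models with the mouse as a block. Adjusted p is Benjamini-Hochberg over all genes, and "more than 2-fold" is glmTreat at a log2 fold change of 1. Samples labelled with the same mouse number come from the same animal, which is where the pairing comes from, although deviations from the group means of same-numbered libraries correlated only at -0.15 to 0.21. For 1 of 8 ACSA2 libraries the homogenate of the same number gave the highest correlation, so the counts themselves do not show the pairing. The preparations of a mouse are separate libraries, and replicates are separate mice. No 2 libraries held identical counts.

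The gene lists, and the rule for named genes, were chosen with earlier results of these data known. The rule names the astrocyte markers and Atp1b2, the 15 largest rises and falls that passed the 2-fold test at 10 CPM or more and in all 8 mice, the 3 highest and 3 lowest genes of each list at 5 CPM or more, and members of the immediate early, heat shock and NF-kB lists. Some genes that the rule names are not reported here. Other genes and the gene ratios were picked after their values were seen. Displayed CPM are TMM-scaled over 24 control libraries. On counts simulated for this comparison (13541 genes tested), the fit called 98 of 98 genes changed by 2 on the log2 scale, 97 of 99 changed by 1, and 13 of 13344 unchanged. Few genes were changed in the simulation, equally up and down, whereas 79.3% of genes differed in the data. The simulation therefore cannot give the rate of false calls in the real comparison. Gene coordinates come from GENCODE M21 (GRCm38, the same assembly as mm10), promoters from RefSeq. Alternatives were no block, other scalings and filters, DESeq2 1.42.0, all 24 control libraries, and mice left out.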

Additional observations from a re-analysis of the deposited data

Results flagged for a closer look

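Among 74 groups of 8 libraries examined, 4 held a library whose gap to its nearest neighbor, as a share of the range of its group, exceeded Dixon's critical value, and chance alone gives about 1 in 20. Meningeal fibroblast genes summed to 225.5 CPM in the ACSA2 library of mouse 37 and to 153.3 to 182.6 CPM in the other 7. In homogenate, mural cell genes summed to 520.6 CPM in mouse 22 (195.9 to 328 CPM in the others), and neuroblast and progenitor genes to 228.3 CPM in mouse 05 (96.1 to 151.1 CPM). The share of reads that aligned to several places was 16.94% in the homogenate of mouse 36, and 8.82% to 9.90% in the other homogenates.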

How the results depend on the processing

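None of the 4 counts of genes moved by over 1.5 times under the 19 alternatives run. Without the replicate block, 5393 genes were higher and 5529 lower, 2302 and 2554 of them by more than 2-fold. Leaving out each mouse gave 5114 to 5344 higher and 5254 to 5479 lower. Mice 03 and 05 alone gave 4281 and 4584. Upper quartile scaling moved the median log2 fold change of all genes to 0.10, from -0.01 (5951 higher and 4914 lower), so small changes depend on the scaling. Without a filter, 19558 genes were tested and the median was -0.16. DESeq2 gave 5087 and 5542. With mice of 1 number range alone, 43 of 900 values of named genes lost their call, 16 gained one and 14 of 113 list medians moved by more than the SD over mice; under the other 16 alternatives the counts were 35 and 30 of 4798 and 3 of 604. Of 300 named genes, 7 turned in sign under an alternative with a call in either fit. Of 38 list medians, which carry no test, 3 turned in sign. In mice 03 and 05 alone, these were Bhlhe40 (0.053), Cd163 (-0.16), Dusp5 (-0.98) and the ependymal median (-0.41). In mice 19, 20 and 22 alone, it was Acta2 (-0.63). In mice 35, 36 and 37 alone, they were Cacybp (-0.49), Cd24a (0.25), Sdhc (-0.009954) and the medians of fibroblast (0.024) and progenitor genes (0.014). Without a filter, the ependymal median was -0.34. The cause was not tested. The homogenates were sequenced more deeply, and levels near 0 CPM in the ACSA2 preparations rest on few counts.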

Other observations

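The 15 genes with the largest rises included some that no list contained, among them Rgs1 (log2 fold change 6.35), a regulator of chemokine receptor signaling, Tagap (5.20), the inflammasome sensor Nlrp3 (5.14), the inflammatory caspase Casp4 (5.05) and Ccrl2 (5.04), an atypical chemokine receptor. Each of these 5 was at 2.11 CPM or less in homogenate on average, between 18.0 and 86.7 CPM in the ACSA2 preparation, and between 130 and 687 CPM in the CD11b preparation. The ratio of the ACSA2 to the CD11b level was 0.126 for Nlrp3 and 0.128 for Ccrl2.

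The 15 largest falls were led by Ankrd63 (log2 fold change -9.30), Col19a1 (-8.95), a collagen of interneurons, and Syt2 (-8.67), a synaptotagmin of fast-spiking synapses, followed by Robo3 (-8.56), Car12 (-8.27), Sst (-8.25), the potassium channel subunit Kcns2 (-8.23) and Crhbp (-8.06), the binding protein of corticotropin-releasing hormone. The neuropeptide precursor Pdyn (-7.87) and the vesicular GABA transporter Slc32a1 (-7.75) were among them as well. Meg3, a long noncoding RNA picked after its value was seen, was 15.4 to 105 CPM in the ACSA2 preparations and 2793 to 6375 CPM in homogenate, 142-fold lower (adjusted p = 9.65e-10).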
